A study of Macaca fascicularis with 9 samples.

Results

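The genes that differed after an antisense oligonucleotide (ASO) against MALAT1 was injected into the cerebrospinal fluid were followed type by type, and cluster by cluster, in nuclei from the thalamus of cynomolgus monkeys (Macaca fascicularis). The comparison takes the 3 animals labelled with an intrathecal dose of 4 mg of the ASO, given 1 time, and the 3 animals labelled saline, which received 4 intravenous doses at intervals of 2 weeks. These are 6 of the 9 animals and 58,808 of the 79,994 nuclei of the series. The remaining 3 animals received OTV:MALAT1, in which such an ASO is joined to a protein that binds the transferrin receptor, as 4 intravenous doses at 30 mpk. They entered the fit for its estimate of spread, the filter on low counts and the scaling, and their values are given beside some results. All animals were female, sampling followed the final dose by 2 weeks, and the labels give no age and no library batch or date. No group received saline by the intrathecal route. Drug, route, the injection itself and the number of doses therefore differ together between the groups compared and cannot be told apart. Each animal is 1 sample, so n is 3 in each group throughout.

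ASOs that lower a nuclear RNA pair with it by base complementarity and let RNase H, an enzyme that cuts RNA bound to DNA, cleave the transcript. MALAT1 is an abundant noncoding transcript kept in the nucleus, where it gathers in speckles that store splicing factors. Oligodendrocytes insulate axons with myelin and arise from oligodendrocyte precursor cells (OPCs). Myeloid nuclei are those of microglia and other macrophages, the phagocytes of the brain, and astrocytes clear transmitters and supply neurons.

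Nuclei were counted in droplets from 10x Genomics, and each molecule of RNA was tagged with a unique molecular identifier (UMI). The ASO animals gave 55,628,940 to 98,850,459 UMIs in 9619 to 11,992 nuclei, and the saline animals 19,981,249 to 87,406,189 UMIs in 2956 to 11,480 nuclei. Saline replicate 3 stood apart, with 2956 nuclei, of which 36.3% were oligodendrocytes against 79.3% and 76.8% in the other saline animals and 73.6% to 89.1% in the ASO animals. Of 79,232 distinct barcode sequences in the series, 760 occurred in more than 1 library. The cell types and cluster numbers are the authors' own. Summed over lists of marker genes, each type carried its own markers: the 7 oligodendrocyte markers reached 5940 to 9570 CPM (the counts-per-million scale, relative to all UMIs of that type and animal) in oligodendrocytes and at most 1580 CPM in the other 3 types of these 6 animals. OPC markers summed to at least 16,000 CPM in OPCs, myeloid markers to at least 5470 CPM in myeloid nuclei and astrocyte markers to at least 10,200 CPM in astrocytes.

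Beyond MALAT1, UMI counts were summed per animal within each type, and groups were compared by the quasi-likelihood test of edgeR. A feature was called at an adjusted p under 0.05, with Benjamini-Hochberg adjustment across every feature of the fit. Against saline, 79 of 20,036 features were called in oligodendrocytes (0.394%), 28 higher (0.14%) and 51 lower (0.255%) in the ASO animals. In OPCs 39 of 14,894 were called (0.262%), 17 higher (0.114%) and 22 lower (0.148%). Myeloid nuclei had 25 calls among 12,667 features (0.197%), 14 higher (0.111%) and 11 lower (0.0868%), and astrocytes had 2 among 13,608 (0.0147%), both higher. An unadjusted p under 0.05 was reached by 11.9% of features in oligodendrocytes, 9.61% for OPCs, 10.3% for myeloid nuclei and 6.1% for astrocytes. These shares, which cover both directions, are the background for list members counted at that level below. The calls cover 128 distinct features, of which 79 carry a gene symbol and 49 only an Ensembl identifier. In 78 of the 79 oligodendrocyte calls and in all calls of the other 3 types the ASO and saline animals did not overlap. Over all features tested, the share without overlap was 18.2% in oligodendrocytes, 17.3% for OPCs, 17.1% for myeloid nuclei and 12.4% for astrocytes. Without saline replicate 3 the counts were 78, 30, 57 and 1 in the same order of types. Fitted to the 6 compared animals only, they were 40, 3, 11 and 5, and with counts thinned to equal totals 13, 12, 32 and 4. Leaving out each of the 9 animals in turn gave 17 to 78 calls in oligodendrocytes (fewest without ASO replicate 2 or saline replicate 2), 2 to 35 in OPCs (fewest without saline replicate 2), 12 to 57 in myeloid nuclei (fewest without ASO replicate 1 or 2) and 1 to 5 in astrocytes. In neurons, with 17 and 18 nuclei in 2 of the ASO animals, edgeR called 0 of 9457 features (234, or 2.47%, had an unadjusted p under 0.05) and the DESeq2 Wald test 7.

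Most of these calls passed again with the mix of clusters held fixed. When nuclei were drawn so that each cluster had the same share of its type in every animal, 64 of the 79 oligodendrocyte calls, 30 of 39 OPC calls and 20 of 25 myeloid calls passed again, and every one that could be tested (75, 39 and 25) kept its direction. The draw used the clusters with at least 20 nuclei in each of the 9 animals, which were 0, 1, 2, 3 and 5 for oligodendrocytes, 4 and 13 for OPCs and 7 and 9 for myeloid nuclei, and left out clusters 8, 10, 12 and 14. For astrocytes it held cluster 6 alone, so that no mix was fixed there. The size of the log2 fold changes under this draw was, in the median, 0.993, 1.00 and 1.01 times the original in oligodendrocytes, OPCs and myeloid nuclei. The draw reuses nuclei of the original sums, so it is not independent of them. With CPM standardised to fixed cluster weights and fitted by limma, 59, 28 and 18 of the calls passed again. The median sizes were then 0.784, 0.917 and 0.979 times the original. Within single clusters, tested 1 at a time, 56 of the 79, 35 of the 39, 23 of the 25 and 2 of the 2 were called in at least 1 cluster of their type. All features called within oligodendrocyte clusters 0, 1, 2, 3, 5 and 8 made up 0.286%, 0.477%, 0.244%, 0.334%, 0.332% and 0.631% of those tested there, against 0.188% and 0.417% for myeloid clusters 7 and 9, 0.26% for OPC cluster 4 and 0.0152% for astrocyte cluster 6. These counts rest on few animals. With 1 animal left out, cluster 0 had 6 to 55 calls (46 with all animals), cluster 1 22 to 62 (79), cluster 2 10 to 61 (37), cluster 3 25 to 56 (48), cluster 5 10 to 53 (45) and cluster 8 30 to 171 (50). Cluster 4 had 2 to 38 (38), cluster 6 1 to 6 (2), cluster 7 9 to 25 (19) and cluster 9 14 to 69 (47). The fewest came without ASO replicate 1 in clusters 0, 1, 3 and 5, without saline replicate 1 in clusters 2 and 7, without saline replicate 2 in cluster 4 and without ASO replicate 2 in cluster 9. In cluster 8 ASO replicate 2 and saline replicate 1 gave 30 each when left out, and ASO replicate 1 gave 171. The direction was the same in every cluster where the feature was tested for 79, 38, 25 and 2 of them. The map of fold changes by cluster shows which genes were called in which clusters.

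**Figure D1:**
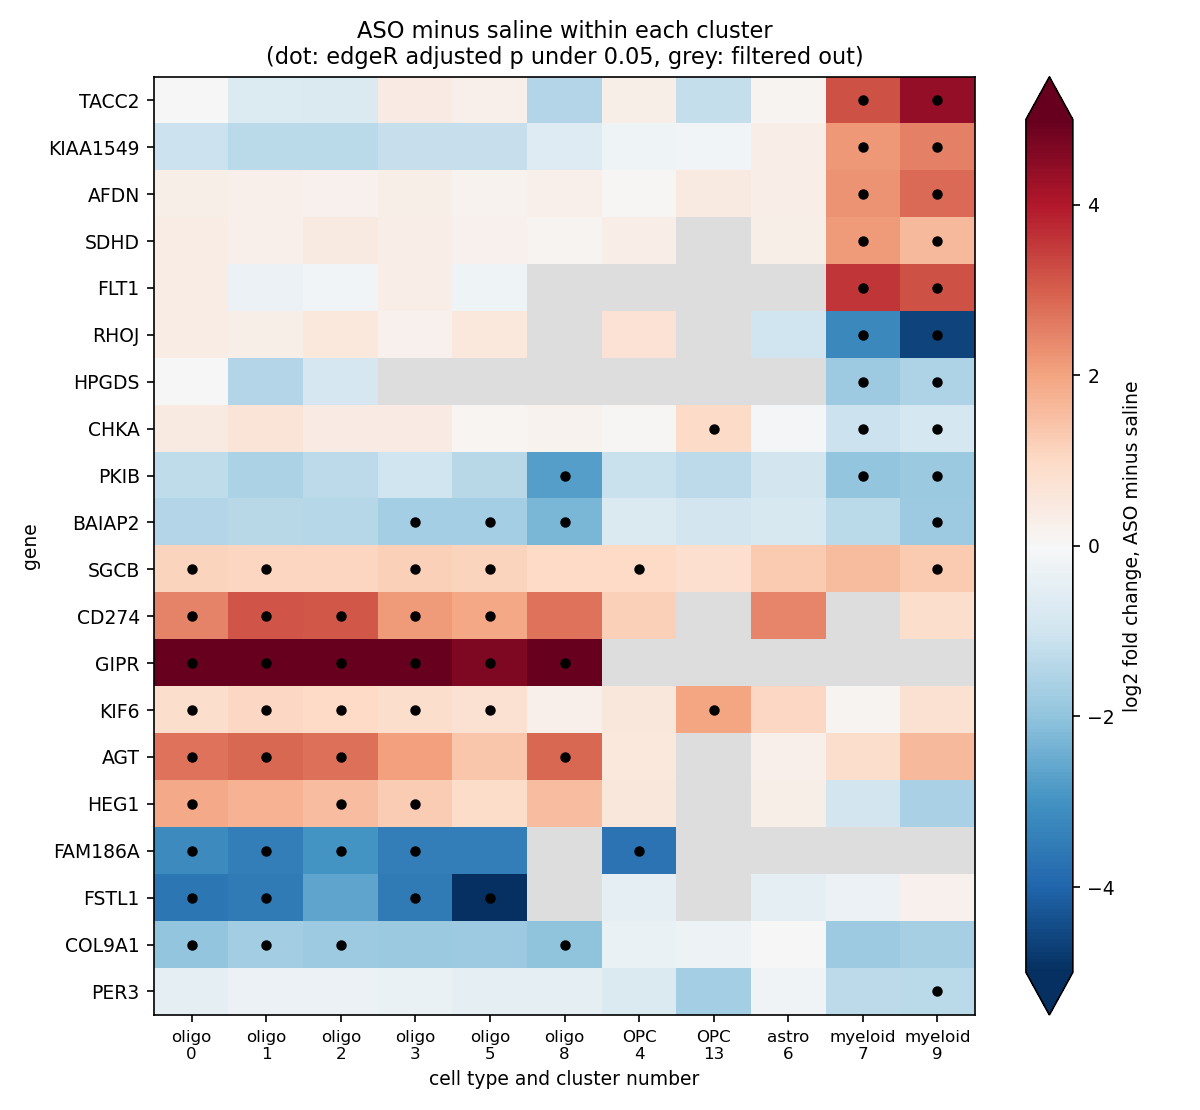
Log2 fold change of ASO against saline (color) for 20 called genes, named beside each row, in the 11 clusters tested, grouped by the authors' cell type; a dot marks an adjusted p under 0.05 within that cluster and grey a gene removed by the filter on low counts. TACC2, KIAA1549, AFDN, SDHD, FLT1 and RHOJ carry dots in myeloid clusters 7 and 9, GIPR in all 6 oligodendrocyte clusters.

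MALAT1 itself had lower values after ASO in each of the 6 oligodendrocyte clusters tested, and passed the threshold on the adjusted p in none of them. Its share of UMIs in cluster 1 was 4.86%, 4.17% and 5.77% in ASO replicates 1, 2 and 3, against 6.54%, 7.23% and 7.23% in saline replicates 1, 2 and 3. All 3 ASO animals lay below all 3 saline animals there and in clusters 0, 2, 3, 5 and 8. Across these 6 clusters the ASO mean was 70.5% to 79.8% of the saline mean, with log2 fold changes from -0.54 to -0.36 and a smallest adjusted p of 0.135, in cluster 1. Unadjusted, the edgeR p for MALAT1 ran from 0.0027 in cluster 1 to 0.0236 in cluster 5. It was 0.00732 over all oligodendrocytes, where 11.9% of all features had an unadjusted p under 0.05. Myeloid cluster 7 held 1.42%, 2.62% and 3.47% in the ASO animals against 3.70%, 3.43% and 3.41%, and cluster 9 held 1.07%, 2.49% and 2.91% against 3.25%, 2.88% and 2.99%. In both, ASO replicates 1 and 2 lay below every saline animal and ASO replicate 3 did not. The means were 71.3% and 70.9% of saline (adjusted p = 0.579 and 0.646). Over all myeloid nuclei the ASO animals held 1.16%, 2.53% and 3.05% against 3.47%, 3.11% and 3.28%, without overlap. The mean of the type was 68.4% of saline there (adjusted p = 0.51) and 74.2% in all oligodendrocytes (adjusted p = 0.203, no overlap). Of all features tested, 18.2% in oligodendrocytes and 17.1% in myeloid nuclei had CPM without overlap. All OPCs and all astrocytes stood at 90.5% and 95.6% for MALAT1, with overlap. OPC cluster 4 stood at 89.0%, astrocyte cluster 6 at 95.8% and OPC cluster 13 at 107% of saline, with overlapping animals in each. The interaction of cell type and treatment gave MALAT1 an adjusted p of 0.790, so a difference between types was not shown.

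**Figure D2:**
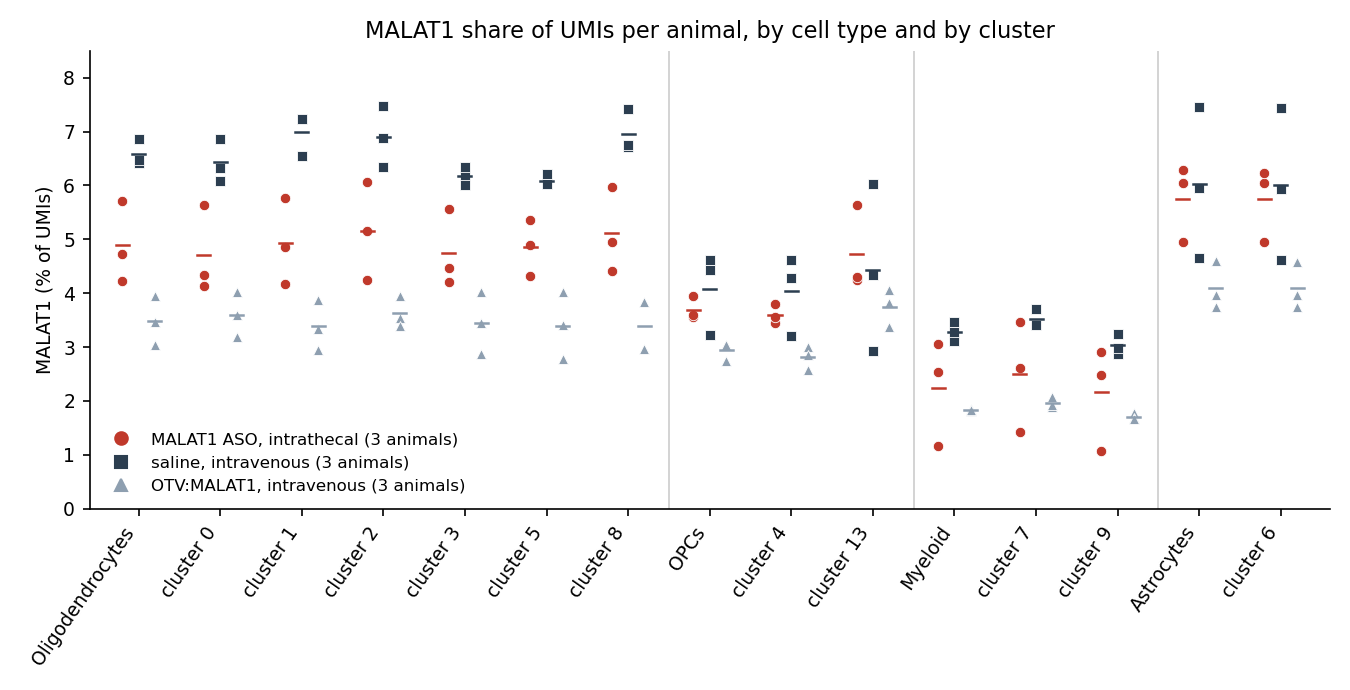
MALAT1 as a percentage of UMIs per animal (y axis) in 4 cell types and their clusters (x axis); points are animals, horizontal bars are means of 3 (2 in cluster 8 of the OTV group). In the 6 oligodendrocyte clusters and in myeloid nuclei as a whole the ASO animals all sit below the saline animals. In OPC, astrocyte and myeloid clusters they overlap.

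In myeloid nuclei the called genes with a symbol were 8 higher and 8 lower. TACC2, which encodes a coiled-coil protein of centrosomes and microtubules, stood at 106, 114 and 95.4 CPM in ASO replicates 1, 2 and 3, against 10.2, 5.10 and 7.55 CPM in saline replicates 1, 2 and 3. The groups were far apart, and the OTV animals lay with saline at 9.11, 11.5 and 10.6 CPM. The log2 fold change of 3.78 (SE 0.24, adjusted p = 0.000159) had the smallest p of the myeloid calls with a symbol. Within cluster 7 TACC2 rose by 3.17 (adjusted p = 0.00385) and within cluster 9 by 4.40 (adjusted p = 1.96e-05). The levels differed by type already in saline: in OPC cluster 4 TACC2 had 156 to 172 CPM in saline and 186 to 213 CPM in ASO animals, a difference of 0.30 that did not pass (adjusted p = 0.348). The interaction of type and treatment passed for TACC2 (adjusted p = 3.3e-05).

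AFDN encodes afadin, which ties nectins at cell junctions to actin. It was at 142, 279 and 189 CPM after ASO and at 37.7, 30.3 and 35.7 CPM after saline, with no overlap (2.56, SE 0.24, adjusted p = 0.00117). KIAA1549, a membrane protein gene known from fusions with BRAF in glioma, was at 103, 123 and 164 CPM against 22.8, 23.0 and 30.2 CPM (2.37, SE 0.21, adjusted p = 0.000788). Both rose in cluster 7 (2.26 and 2.16) and in cluster 9 (2.83 and 2.53). SDHD, a nuclear gene for a membrane anchor of succinate dehydrogenase, was nearly constant within each group, at 68.6, 72.1 and 73.1 CPM against 21.9, 22.1 and 15.8 CPM. Its fold change was 1.81 (SE 0.18, adjusted p = 0.00117), at 2.12 in cluster 7 and 1.62 in cluster 9. The interaction passed for each of the 3 genes (adjusted p = 3.3e-05, 0.00943 and 0.00506), and their log2 fold changes in oligodendrocytes, OPCs and astrocytes, between -1.46 and 0.35, were not called.

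RHOJ, a small GTPase related to Cdc42, moved the other way. Its 3 ASO animals had 3.53, 2.97 and 6.44 CPM, from 38 UMIs in all, against 74.0, 84.2 and 51.5 CPM in saline and 118, 67.0 and 129 CPM in OTV animals. The fall of 4.05 on the log2 scale (SE 0.36, adjusted p = 0.00111) was the largest among the myeloid calls that carry a symbol, apart from the mitochondrial ND5, and it held in clusters 7 (-3.22) and 9 (-4.63). BAIAP2, an effector of Rac and Cdc42 that bends membranes into protrusions, was at 17.3, 16.7 and 20.8 CPM against 56.5, 46.5 and 78.9 CPM (-1.72, adjusted p = 0.00956). It was called in myeloid cluster 9 (-1.83) and not in cluster 7 (-1.36, adjusted p = 0.0815), and it was also called lower in oligodendrocyte clusters 3, 5 and 8 (-1.69, -1.71 and -2.27). PKIB, an inhibitor of protein kinase A, was at 40.3, 30.0 and 20.4 CPM against 105, 104 and 102 CPM (-1.78, adjusted p = 0.00665). In the draw to equal cluster shares PKIB missed the threshold (adjusted p = 0.0748), although it was called within clusters 7 (-1.98) and 9 (-1.86) alone.

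Among lipid and kinase genes, HPGDS, the synthase of prostaglandin D2 in blood-derived cells and microglia, fell from 300, 497 and 355 CPM in saline to 96.9, 140 and 156 CPM in ASO animals (-1.55, SE 0.23, adjusted p = 0.0353). CHKA, the choline kinase that starts the main route to phosphatidylcholine, had 361, 381 and 390 CPM against 750, 767 and 578 CPM (-0.89, adjusted p = 0.0467). Both fell in clusters 7 and 9 as well, CHKA by 1.06 and by 0.86 on the log2 scale. MAP3K9, a mixed lineage kinase upstream of JNK, was at 58.0, 44.0 and 35.6 CPM against 99.5, 93.9 and 111 CPM (-1.14, adjusted p = 0.0436). LOXHD1, a gene best known from hair cells of the ear, was at 99.3, 112 and 93.5 CPM against 259, 178 and 314 CPM (-1.30, adjusted p = 0.0398).

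FLT1, MS4A4A and USP53 were called higher in myeloid nuclei. FLT1, a receptor for VEGF on endothelium and on monocytes, was at 26.2, 20.5 and 12.9 CPM against 2.63, 1.42 and 1.37 CPM (3.37, SE 0.46, adjusted p = 0.0196), and OTV animals had 12.2, 7.93 and 3.98 CPM. It was the called member of the endothelial markers, of which 8 are in the matrix and 6 were tested in this type. Their summed level was 839 to 1000 CPM after ASO and 542 to 786 CPM after saline, mostly from VWF, while CDH5 and MFSD2A were at or near 0 in both groups. MS4A4A, a tetraspan protein of macrophages, was at 32.2, 34.0 and 34.1 CPM against 9.36, 8.51 and 2.75 CPM (2.18, adjusted p = 0.0307). USP53, a protein of tight junctions, was at 44.2, 40.5 and 47.0 CPM against 17.8, 13 and 19.9 CPM (1.39, adjusted p = 0.0429). MS4A4A and USP53 missed the threshold in the draw to equal cluster shares, with adjusted p of 0.116 and 0.168.

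Markers of other cells moved beside these calls, and their part in them was not tested. The 8 astrocyte markers summed to 814 to 1290 CPM in myeloid nuclei of ASO animals and to 1940 to 3020 CPM in those of saline animals. Most of this was SLC1A3, at 948, 779 and 1140 CPM against 1970, 1850 and 2470 CPM (adjusted p = 0.302), while GFAP and AQP4 were at 19.1 CPM or less in every animal. Oligodendrocyte markers summed to 954 to 1580 CPM in myeloid nuclei of ASO animals, 794 to 923 CPM in those of saline animals and 1080 to 1710 CPM in those of OTV animals, with 0 of 7 called and a median of 0.49. Of 18 myelin genes tested in myeloid nuclei 0 were called, and 4 were higher and 0 lower at an unadjusted p under 0.05. Neuron markers summed to 81.3 to 242 CPM in myeloid nuclei after ASO and 143 to 693 CPM after saline (median -1.01), with 0 of 9 called and 3 lower and 0 higher at an unadjusted p under 0.05. OPC markers summed to 63.5 to 135 CPM against 84.9 to 456 CPM (median -0.94), with 0 of 6 called. For both lists the ranges overlapped and saline replicate 3 was highest. T cell markers summed to 96.7 to 405 CPM against 73.4 to 144 CPM, highest in ASO replicate 3. The myeloid markers themselves were at 5470 to 6620 against 5770 to 6400 CPM. Monocyte and border macrophage markers summed to 628 to 791 CPM after ASO and 864 to 928 CPM after saline, mostly from MRC1, with 0 of 7 called, and S100A8 and S100A12 were at 0 in all 6 animals. Cluster 9 made up 62.0%, 57.0% and 62.5% of myeloid nuclei after ASO and 39.9%, 46.0% and 23.7% after saline (two-sided exact permutation p = 0.1, the smallest that 3 against 3 allows, 0.8 adjusted over clusters). The calls of TACC2, KIAA1549, AFDN, SDHD, RHOJ and PKIB held without any 1 of the 9 animals. Of the 16 named myeloid calls, 9, 10 and 5 were lost without ASO replicates 1, 2 and 3, 6, 8 and 0 without saline replicates 1, 2 and 3, and 7, 8 and 3 without OTV replicates 1, 2 and 3.

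**Figure D3:**
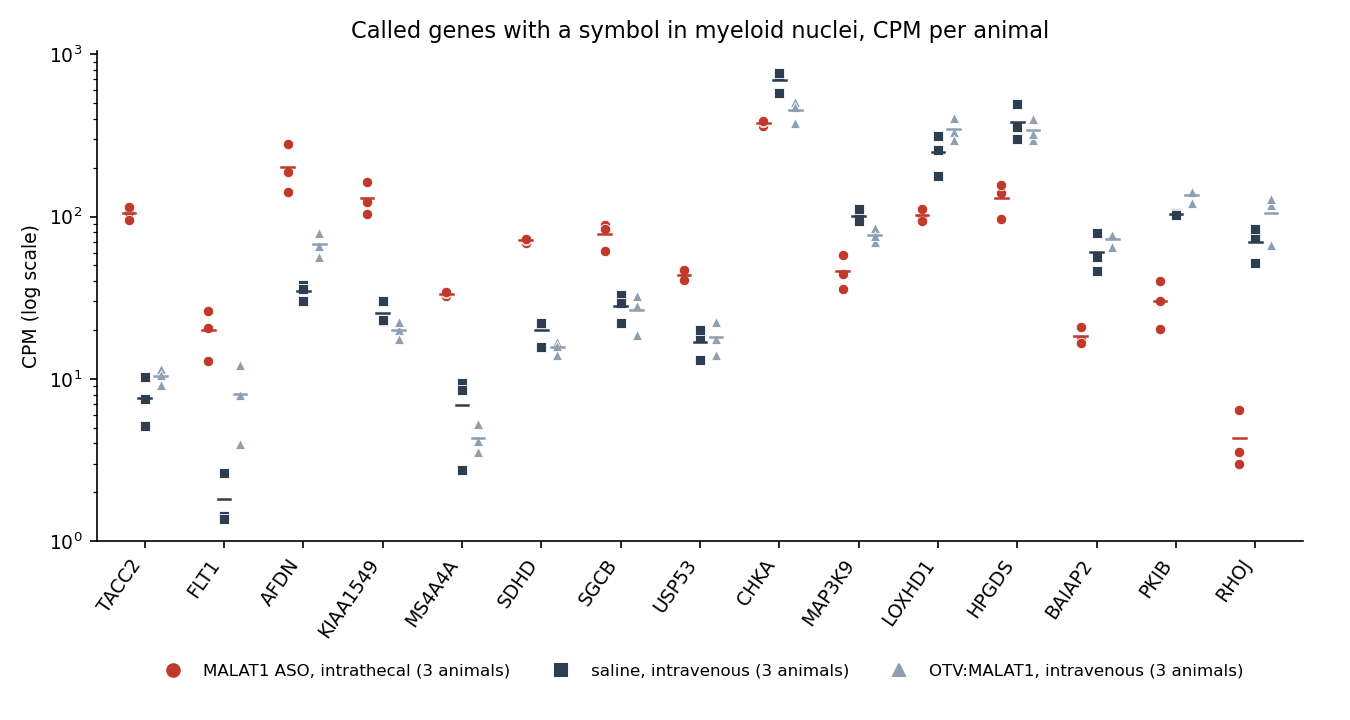
CPM (log scale) of 15 called genes with a symbol in myeloid nuclei, per animal; points are animals and horizontal bars means of 3. ASO animals lie above saline for the genes from TACC2 to USP53 and below saline from CHKA to RHOJ. The groups do not overlap, as in all 25 myeloid calls.

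Lists of genes tied to the state of microglia held no calls. At 3 animals a group this does not show that their genes did not differ. Of 17 homeostatic genes tested in myeloid nuclei, 0 were called and 0 had an unadjusted p under 0.05 (median log2 fold change -0.02, against 0.00 over all features). Of 20 activation genes, 0 were called, with 2 higher and 1 lower at an unadjusted p under 0.05, which 10.3% of all features reached. Of these 20, 13 had higher values (median 0.19). The activation list summed to 2200 to 2420 CPM after ASO and 1970 to 2130 CPM after saline. The lysosomal list summed to 2490 to 2860 against 2020 to 2370 CPM, and 16 of 22 genes tested had higher values (median 0.17). Of these 22 lysosomal genes, 0 were called and 3 were higher at an unadjusted p under 0.05. The nearest were CTSB, a lysosomal protease, at 489, 408 and 422 CPM against 236, 296 and 179 CPM (0.89, adjusted p = 0.0719), and NPC2, a cholesterol carrier of lysosomes, at 109, 223 and 134 CPM against 60.0, 77.7 and 45.3 CPM (1.34, adjusted p = 0.111). The groups did not overlap for these 2 genes, as for 17.1% of all features tested in myeloid nuclei. The OTV animals had 414, 405 and 407 CPM of CTSB.

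In oligodendrocytes the calls with a symbol were 15 higher and 33 lower genes, mitochondrial transcripts among the lower. GIPR, the receptor of the gut hormone GIP, was at 49.5, 45.0 and 30.9 CPM after ASO against 0.701, 1.15 and 0.209 CPM after saline and 0.753, 0.945 and 1.19 CPM after OTV:MALAT1. It was called in each of the 6 oligodendrocyte clusters, at log2 fold changes from 4.65 in cluster 5 to 6.08 in cluster 8. In cluster 2 its levels were 56.1, 46.9 and 38.7 CPM against 1.11, 1.43 and 0.748 CPM. The other glia showed little of it: OPCs had 19 UMIs in the 3 ASO animals and 13 in the 3 saline animals, myeloid nuclei 9 and 3, and astrocytes 7 and 8, too few to be tested there. Of 12 related class B receptors and hormones tested in oligodendrocytes, GIPR was the call, and GLP1R had at most 0.198 CPM in any ASO animal. Of these 12, 3 had higher values after ASO, with a median of -0.51 against 0.01 over all features. At an unadjusted p under 0.05, which 11.9% of all features reached, 1 was higher and 3 were lower. EML2, the gene next to GIPR in the RefSeq order, was also called, at 239, 209 and 192 against 131, 142 and 121 CPM (0.70, adjusted p = 0.0354). EML2 was chosen after its values were seen.

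CD274 encodes PD-L1, a ligand that restrains T cells, and was called in clusters 0, 1, 2, 3 and 5. In cluster 2 it was at 14.4, 14.7 and 29.2 CPM against 1.99, 2.68 and 1.5 CPM (3.10, adjusted p = 0.00821). Of 18 genes of antigen presentation and checkpoints tested in oligodendrocytes CD274 was the call. PDCD1LG2, the second PD-1 ligand, had 6.85, 5.05 and 13 CPM against 1.33, 1.29 and 1.67 CPM (2.58, adjusted p = 0.0817). CIITA, the master regulator of MHC class II, had 4.59, 3.04 and 4.20 CPM against 1.57, 1.31 and 0.837 CPM (1.58, adjusted p = 0.0645). CD274 lay higher without overlap, and without a call, in the other 3 types, which come from the same animals. Among all features tested, 12.4% in astrocytes, 17.3% in OPCs and 17.1% in myeloid nuclei did not overlap. Astrocytes had 30.6, 17.1 and 46.5 CPM against 5.16, 6.80 and 5.64 CPM (2.40, adjusted p = 0.211), OPCs 11.7, 11.6 and 18.4 CPM against 7.54, 5.52 and 5.04 CPM (1.19, adjusted p = 0.186) and myeloid nuclei 8.48, 7.29 and 11.0 CPM against 4.1, 4.54 and 1.37 CPM (1.29, adjusted p = 0.266). The list's median was 0.30 in oligodendrocytes and 0.19 in OPCs, against 0.01 over all features in both, and 0.00 in myeloid nuclei and 0.01 in astrocytes, against 0.00. In myeloid nuclei 1 member was higher and 3 were lower at an unadjusted p under 0.05, among them NLRC5, an activator of MHC class I genes, at 8.84, 12.2 and 31.1 CPM against 91.3, 61.5 and 34.3 CPM (-1.88, adjusted p = 0.302).

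AGT, the precursor of angiotensin, was at 16.6, 27.0 and 31.5 CPM against 2.67, 5.19 and 5.65 CPM (2.52, SE 0.38, adjusted p = 0.0354) and was called in clusters 0, 1, 2 and 8. ADIPOQ, the fat cell hormone adiponectin, rose from 0.166, 0.197 and 0.209 CPM in saline to 2.83, 2.20 and 1.27 CPM in ASO animals (3.49, adjusted p = 0.0168). WNT10B, a Wnt ligand, was at 1.78, 1.54 and 1.60 CPM against 0.295, 0.380 and 0.418 CPM (2.23, adjusted p = 0.0242). These 2 transcripts were rare even after ASO. HEG1, a membrane protein that anchors the CCM complex at cell junctions, was at 44.8, 54.8 and 55.7 CPM against 22.8, 13.9 and 20.1 CPM (1.46, adjusted p = 0.0192). For HEG1 the OTV animals lay with the ASO animals, at 53.2, 44.5 and 50.8 CPM, a comparison that shares the saline animals.

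Higher genes with roles inside the cell included BRCA1, which repairs DNA breaks, at 44.6, 40.2 and 36.5 CPM against 20.8, 16.7 and 20.9 CPM (1.06, adjusted p = 0.0404). KIF6, a kinesin motor, was at 346, 350 and 404 CPM against 199, 173 and 212 CPM (0.91, SE 0.12, adjusted p = 0.0192) and was called in clusters 0, 1, 2, 3 and 5. GPN2, a GTPase linked to RNA polymerase assembly, was at 24.2, 24.3 and 24.2 CPM against 13, 11.8 and 12.1 CPM (0.98, adjusted p = 0.0192). The animals of each group were close together for these genes, which choosing genes by p favours. BRCA1 was called in OPCs too, at 31.2, 29.4 and 18.4 CPM against 9.20, 11.2 and 12.3 CPM (1.28, adjusted p = 0.0466), and had 0.39 in myeloid nuclei without a call. The interaction passed for BRCA1 (adjusted p = 0.0316). Of 18 genes of DNA damage and p53 tested in oligodendrocytes, 0 were called.

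Genes lower in oligodendrocytes are given here by what they encode. HSD17B6, a dehydrogenase of steroids and retinoids, was at 5.14, 5.40 and 5.83 CPM against 14.8, 14.3 and 13.8 CPM (-1.39, SE 0.14, adjusted p = 0.00863). It fell in OPCs as well, by 1.97 on the log2 scale (adjusted p = 0.025). FAM186A, a gene of little known function, fell in both types, by 3.30 in oligodendrocytes and by 3.96 in OPCs (adjusted p = 0.00863 and 0.0199).

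Of matrix genes, COL9A1, a chain of collagen IX, was at 161, 134 and 173 CPM against 403, 635 and 696 CPM (-1.89, SE 0.28, adjusted p = 0.0354) and fell in clusters 0, 1, 2 and 8. FSTL1, a secreted glycoprotein, had 0.319, 0.241 and 0.712 CPM against 5.20, 4.65 and 7.32 CPM (-3.78, adjusted p = 0.0168), and the OTV animals lay above saline at 20.4, 13.8 and 9.96 CPM. OLFML2A, another secreted protein, had 1.2, 0.768 and 1.2 CPM against 15.9, 15.9 and 3.56 CPM (-3.54, adjusted p = 0.0354). The interaction passed for COL9A1 and FSTL1 (adjusted p = 0.00861 and 0.00152), and in OPCs their log2 fold changes were -0.34 and -0.43 without a call. UNC13B, which primes synaptic vesicles, was at 85.5, 112 and 105 CPM against 180, 293 and 269 CPM (-1.30, adjusted p = 0.0462). Neuron markers summed to 156 to 219 CPM in oligodendrocytes of ASO animals and to 237 to 915 CPM in those of saline animals, of which SYT1 had 524 CPM in saline replicate 3. OPC markers summed to 220 to 295 against 256 to 820 CPM, also highest in saline replicate 3. Their part in these calls was not tested. Without saline replicate 3 COL9A1 and UNC13B lost their calls.

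Some lower genes were rare or had other roles. IL1A, the cytokine interleukin 1 alpha, had 0.0913, 0.0688 and 0.153 CPM against 2.14, 1.97 and 0.837 CPM (-4.13, SE 0.55, adjusted p = 0.02) and was the call among 11 cytokine and NF-kB genes tested. ATP2A1, a calcium pump of muscle, fell by 2.79 on the log2 scale (adjusted p = 0.0462), and TMEM132C, a membrane protein, had 1.19, 1.28 and 1.40 CPM against 10.0, 7.03 and 5.44 CPM (-2.56, adjusted p = 0.0158). EFCAB5, a calcium-binding protein, was at 6.5, 4.96 and 4.96 CPM against 25.1, 15.9 and 26.1 CPM (-2.02, adjusted p = 0.02). Each of these 4 genes separated the groups fully, as did 78 of the 79 oligodendrocyte calls. CFAP43, a protein of cilia, was at 46.9, 55.2 and 54.4 CPM against 97.5, 91.5 and 137 CPM (-1.05, adjusted p = 0.0462), and the ependymal list it belongs to summed to 71.4 to 86.3 against 118 to 180 CPM. BCL2, which blocks cell death, was chosen after its values were seen, and had 20.6, 17.5 and 33.8 CPM against 233, 142 and 111 CPM (-2.76, adjusted p = 0.0462), with OTV animals at 228, 180 and 79.0 CPM.

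PCSK6, ADK, ROBO1 and KCNMB4 missed the threshold in oligodendrocytes as a whole and passed it in at least 3 clusters. ADK, adenosine kinase, was at 485, 464 and 455 CPM against 849, 1060 and 899 CPM (-1.0, adjusted p = 0.0583) and was called in clusters 0, 2 and 8 at -1.03 to -1.10. PCSK6, a protease that activates secreted precursors, was at 72.2, 102 and 52.3 CPM against 208, 150 and 205 CPM (-1.31, adjusted p = 0.0541), and its calls in clusters 0 to 3 ran from -2.55 to -0.94. ROBO1, the receptor of Slit guidance cues, was called in clusters 3, 5 and 8 at -1.86, -2.12 and -1.16. KCNMB4, a subunit of calcium-activated potassium channels, was called in clusters 1, 2 and 8 at -1.01, -1.03 and -0.86. All 4 were lower wherever they were called. Of 19 myelin genes tested in oligodendrocytes 0 were called (median 0.16).

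The calls of GIPR, CD274, FAM186A, HSD17B6 and ND5 held in oligodendrocytes without any 1 of the 9 animals. The other 27 of 32 named calls were lost at least 1 time. There were 25, 27 and 24 losses without ASO replicates 1, 2 and 3, 15, 20 and 5 without saline replicates 1, 2 and 3, and 6, 9 and 5 without OTV replicates 1, 2 and 3.

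**Figure D4:**
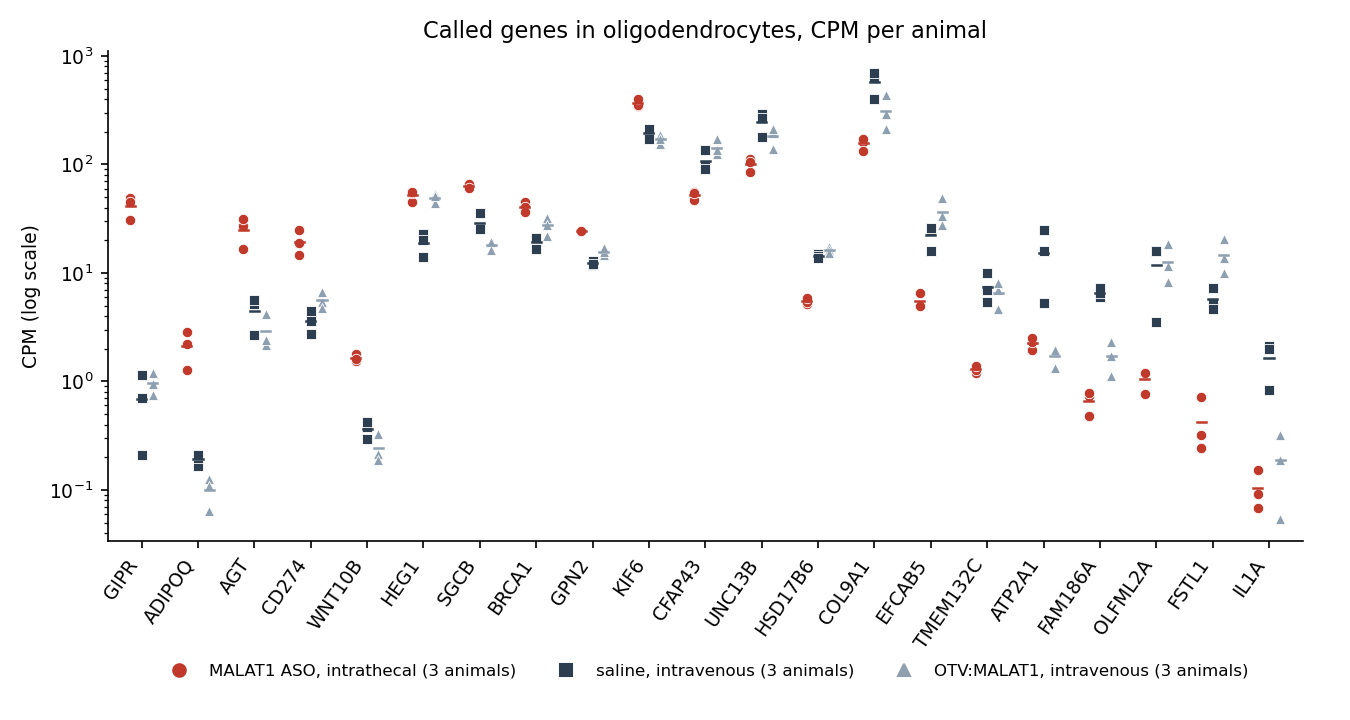
CPM (log scale) of 21 called genes in oligodendrocytes, per animal; points are animals and horizontal bars means of 3. GIPR separates ASO animals (30.9 to 49.5 CPM) from both other groups (at most 1.19 CPM), while for HEG1, ATP2A1 and IL1A the OTV animals lie nearer the ASO animals than saline.

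In OPCs the called genes with a symbol were 8 higher and 17 lower. RIT2, a small GTPase of the Ras family found in neurons, was at 112, 103 and 99.6 CPM against 265, 298 and 177 CPM (-1.24, SE 0.18, adjusted p = 0.0297). PDE3A, a phosphodiesterase that degrades cyclic AMP, was at 119, 115 and 86.9 CPM against 236, 225 and 209 CPM (-1.06, SE 0.15, adjusted p = 0.0252). KCNQ5, a potassium channel gene of the M current, was at 37.3, 35.5 and 56.7 CPM against 91.4, 91.7 and 102 CPM (-1.14, adjusted p = 0.0297). No animal of 1 group reached the range of the other for these 3 genes. The rule that named them required this, and it held for all 39 OPC calls.

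Other OPC calls ranged more widely in size. TTF1, which ends transcription of ribosomal RNA genes, had the smallest p of the OPC calls with a symbol, at 40.9, 43.3 and 45.0 CPM against 73.9, 81.3 and 82.4 CPM (-0.88, SE 0.11, adjusted p = 0.0185). CBFB, the partner of RUNX factors, was at 148, 161 and 156 CPM against 97.9, 86.1 and 98.3 CPM (0.72, SE 0.10, adjusted p = 0.0276). SFRP4, a secreted Wnt antagonist, was at 11.6, 12.5 and 10.5 CPM against 3.77, 2.44 and 4.20 CPM (1.77, adjusted p = 0.0313). AGBL3, a carboxypeptidase that trims glutamates from tubulin, was at 20.0, 15.2 and 10.2 CPM against 3.32, 3.18 and 4.20 CPM (2.11, adjusted p = 0.0313), and GABRR3, a GABA receptor subunit, was at 7.18, 9.07 and 2.67 CPM against 0.453, 0.530 and 0.00 CPM (3.92, adjusted p = 0.0309). ECHDC2, a mitochondrial protein, rose by 0.95 and SANBR fell by 0.69 on the log2 scale (adjusted p = 0.035 and 0.0297). In cluster 4, which held 87.3% to 93.5% of OPCs, 33 of the 39 OPC calls passed again, among 38 of 14,617 features called there (0.26%).

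PER3, a repressor of the circadian clock, was called lower in OPCs, at 112, 105 and 88.5 CPM against 179, 172 and 177 CPM (-0.79, SE 0.12, adjusted p = 0.0304), with OTV animals at 199, 237 and 259 CPM. It was the call among 17 clock genes tested there, and in OPC cluster 4 alone it missed the threshold (-0.74, adjusted p = 0.0554). CRY1, another repressor of the clock, had 64.2, 49.7 and 48.7 CPM against 30.9, 39.9 and 35.9 CPM in OPCs (0.61, adjusted p = 0.159) and was called higher in OPC cluster 13 (1.02, adjusted p = 0.0444), a call lost without 6 of the 9 animals in turn. In myeloid nuclei CRY1 had 37.8, 40.0 and 37.1 CPM against 50.3, 57.3 and 46.0 CPM (-0.42, adjusted p = 0.341). It was lower without a call and without overlap, as 17.1% of all features there were without overlap. There PER3 was at 109, 62.6 and 60.2 CPM against 216, 166 and 199 CPM (-1.33, adjusted p = 0.0829) and was called within cluster 9 (-1.35, adjusted p = 0.014). Clock genes with an unadjusted p under 0.05 numbered 4 lower and 0 higher of 18 in oligodendrocytes. They were 4 and 2 of 17 for OPCs, 6 and 1 of 14 for myeloid nuclei and 4 and 1 of 17 for astrocytes. Over all features tested, in either direction, that level was reached by 11.9%, 9.61%, 10.3% and 6.1% in the same order of types. In myeloid nuclei NR1D2, a nuclear receptor of the clock, had 74.2, 62.6 and 57.6 CPM against 145, 118 and 130 CPM (-1.02, adjusted p = 0.0683). There ARNTL, the activator that PER proteins oppose, had 78.8, 95.3 and 112 CPM against 63.5, 58.7 and 55.6 CPM (0.68, adjusted p = 0.133). The list's median was -0.39 in oligodendrocytes, 0.02 for OPCs, -0.39 for myeloid nuclei and -0.25 for astrocytes, against medians of all features between 0.00 and 0.01. The labels do not give the time of day of sampling. The interaction passed for PER3 (adjusted p = 0.00506).

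Markers of neighbouring stages and cells differed between the OPCs of the groups, and their part in the OPC calls was not tested. The 7 oligodendrocyte markers summed to 817 to 1100 CPM after ASO, 415 to 645 CPM after saline and 803 to 1140 CPM after OTV:MALAT1. Of 19 myelin genes tested in OPCs 0 were called, 8 were higher at an unadjusted p under 0.05, and the median was 0.63 against 0.01 over all features. Of all 14,894 features tested in OPCs, 708 were higher at that level. Neuron markers summed to 1300 to 1810 against 2170 to 2340 CPM, led by NRXN3 at 221, 526 and 521 against 912, 1220 and 982 CPM. All 20 named OPC calls were lost without ASO replicate 1 and without saline replicate 2. Without ASO replicates 2 and 3, 16 and 9 were lost, without saline replicates 1 and 3, 17 and 8, and without OTV replicates 1, 2 and 3, 3, 11 and 4.

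Cluster 13, a small group of nuclei within the authors' OPC class, had more calls than the other 10 clusters by edgeR with all animals. The DESeq2 Wald test called 234 features there, against 425 in cluster 1, 374 in cluster 0 and 309 in cluster 2, and without ASO replicate 1 edgeR called 47 there against 171 in cluster 8. It held 61, 25 and 31 nuclei in ASO animals and 38, 52 and 30 in saline animals, which gave 241,456 to 979,930 UMIs per animal. Of 5907 features 225 were called (3.81%), 94 higher (1.59%) and 131 lower (2.22%). The count fell to 47 without ASO replicate 1, 107 without ASO replicate 2, 149 without ASO replicate 3, 49 without saline replicate 1, 139 without saline replicate 2 and 83 without saline replicate 3. Of the 39 OPC calls, 13 could be tested there and 2 passed. The genes named here were chosen after their values were seen, from the 20 calls that held without any 1 animal and from the lists.

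In cluster 13 SLC4A10, a bicarbonate transporter, was lower, at 80.4, 85.9 and 99.0 CPM against 260, 272 and 295 CPM (-1.64, SE 0.21, adjusted p = 0.00237). MTSS1, which shapes membranes over actin, was at 37.5, 38.8 and 93.5 CPM against 384, 271 and 440 CPM (-2.73, adjusted p = 0.00237), and CTNNA2, a neuronal catenin, was at 98.6, 183 and 126 CPM against 495, 472 and 374 CPM (-1.75, adjusted p = 0.00237). NTRK2, the receptor of BDNF, was at 56.8, 72.1 and 57.7 CPM against 181, 160 and 185 CPM (-1.5, adjusted p = 0.0064), and NRG3, a neuregulin, fell by 1.85 (adjusted p = 0.0103). PDGFRA, the growth factor receptor that marks OPCs, had 11.8, 19.4 and 11.0 CPM against 38.4, 45.8 and 52.8 CPM (-1.71, adjusted p = 0.046), a call lost without 7 of the 9 animals in turn. The groups did not overlap for any of these genes with values given, which were chosen from the calls with their values seen. The share of all features without overlap was not counted in this cluster. Markers of other cells were called lower beside these genes, NRXN3 of the neuron markers (-2.50, adjusted p = 0.0179) and SLC1A3 of the astrocyte markers (-1.68, adjusted p = 0.0479). The NRXN3 call was lost without 3 of the 9 animals in turn and the SLC1A3 call without 8. Summed neuron markers were at 740 to 1170 against 998 to 1250 CPM in this cluster and astrocyte markers at 66.5 to 121 against 141 to 387 CPM, and their part in the calls was not tested.

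Higher there were RAPGEF2, an activator of the GTPase Rap, at 2020, 1480 and 1750 CPM against 700, 458 and 488 CPM (1.67, SE 0.23, adjusted p = 0.00237), and COL11A2, a collagen chain, at 206, 238 and 253 CPM against 57.6, 62.8 and 30.8 CPM (2.11, adjusted p = 0.00973). The OTV animals lay with saline for RAPGEF2, at 540, 683 and 537 CPM, and above both groups for COL11A2, at 292, 672 and 760 CPM. UGT8, the enzyme that makes the galactolipids of myelin, was at 438, 474 and 407 CPM against 190, 322 and 154 CPM (0.95, adjusted p = 0.0472). TF, transferrin, which oligodendrocytes express, was at 436, 571 and 533 CPM against 250, 351 and 132 CPM (1.03, adjusted p = 0.0488). The UGT8 call was lost without 6 of the 9 animals in turn and the TF call without 7. Of 15 myelin genes tested UGT8 was the call, and 9 were higher at an unadjusted p under 0.05. Of all 5907 features there 440 were higher at that level. The median of the myelin genes was 0.59 against -0.01 over all features. Oligodendrocyte markers summed to 2850 to 4190 CPM after ASO, 1420 to 2480 CPM after saline and 2730 to 2920 CPM after OTV:MALAT1, and OPC markers to 11,700 to 14,900, 14,000 to 20,400 and 9100 to 14,400 CPM. The share of OPCs in cluster 13 was 6.62%, 5.09% and 3.43% against 4.88%, 5.57% and 5.08% (two-sided exact permutation p = 0.9).

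Astrocytes gave calls for features without a symbol only. ENSMFAG00000046424 was at 44.7, 97.0 and 66.4 CPM in ASO animals and at 1.19, 0.638 and 0.00 CPM in saline animals (adjusted p = 0.0013). ENSMFAG00000046427 was at 16.1, 19.3 and 14.4 CPM against 0.00, 0.213 and 0.00 CPM (adjusted p = 0.0373). Both were called higher in each of the 4 types and in 10 of the 11 clusters, and neither the files nor the reference table pairs them with a gene name. In oligodendrocytes the former had 19,936 UMIs in the 3 ASO animals and 57 in the 3 saline animals, and the latter 5925 and 15. Of 13 reactive astrocyte genes tested in astrocytes 0 were called and 1 had an unadjusted p under 0.05 (median 0.35, against 0.00 over all features), and of 18 homeostatic genes 0 and 0.

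SGCB encodes beta-sarcoglycan of the dystrophin complex, which links the cytoskeleton to the matrix, and its levels were alike across types. In oligodendrocytes it was at 64.5, 65.4 and 61.3 CPM against 26.3, 35.8 and 25.3 CPM, in OPCs at 64.1, 66.4 and 61.6 against 28.7, 35.1 and 32.8 CPM, and in myeloid nuclei at 88.7, 83.7 and 61.7 against 32.8, 29.5 and 22 CPM. It was called in these 3 types. Astrocytes had 73.0, 73.3 and 83.6 CPM against 23.8, 30.1 and 38.9 CPM without a call (adjusted p = 0.134), and the interaction did not pass (adjusted p = 0.848). The OTV animals were on the other side of saline in oligodendrocytes, at 19.3, 19.2 and 16.3 CPM, and in OPCs, at 19.6, 17.6 and 12.6 CPM. Among the other 22 members of the complex tested in oligodendrocytes and 21 in OPCs 0 were called. In OPC cluster 13 DMD, the dystrophin gene, was called lower, at 125, 244 and 214 CPM against 503, 425 and 466 CPM (-1.28, adjusted p = 0.0151), a call lost without 2 of the 9 animals in turn.

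Transcripts of the mitochondrial genome were lower in the ASO animals in every type. They come from organelles outside the nucleus, so in nuclear preparations they measure cytoplasmic carry-over as well as expression. The 13 protein-coding transcripts, which encode subunits of respiratory complexes I, III, IV and V, summed in oligodendrocytes to 3.65, 8.06 and 5.62 CPM in ASO animals against 290, 125 and 47.5 CPM in saline and 1500, 565 and 754 CPM in OTV animals. OPCs had sums of 3.11 to 6.16 against 44.8 to 195 CPM, myeloid nuclei 3.18 to 8.91 against 52.2 to 242 CPM and astrocytes 2.53 to 6.61 against 84.6 to 282 CPM. The sums of the 3 ASO animals rest on 1164, 81, 53 and 46 UMIs in oligodendrocytes, OPCs, myeloid nuclei and astrocytes. Single transcripts in oligodendrocytes had log2 fold changes from -2.77 for ATP8 to -10.56 for ND4, which had 1 UMI in the ASO animals. The mean sum of the saline animals was 26.7, 28.4, 27.6 and 47.3 times that of the ASO animals in these 4 types. The ratio fell to 14.9 in oligodendrocytes without saline replicate 1, and rose to 40.7 in myeloid nuclei without ASO replicate 2. Over all 6 compared animals left out in turn, a check chosen after seeing the data, it ran from 14.9 to 35.9, 19.3 to 37.2, 19.1 to 40.7 and 37.0 to 67.3. Of these transcripts 9 of 13 were called lower in oligodendrocytes, 4 of 12 for OPCs, 1 of 12 for myeloid nuclei and 0 of 12 for astrocytes. At an unadjusted p under 0.05, 13, 12, 11 and 12 were lower and 0 higher. In all 4 types each ASO animal lay below each saline animal and each saline animal below each OTV animal. The spread within groups was wide, and saline replicate 3 had the lowest level among the saline animals. Transcripts of cytosolic ribosomal proteins, which are also found outside the nucleus, had 0 of 16 called in each type. In oligodendrocytes 16 of 16 had higher values after ASO (median 0.51), of which 1 had an unadjusted p under 0.05, and their summed level overlapped, at 497, 911 and 655 CPM against 588, 507 and 345 CPM. Higher values numbered 14 of 16 for OPCs (median 0.43), 16 of 16 for myeloid nuclei (0.46) and 8 of 16 for astrocytes (0.01), of which 2, 1 and 0 had an unadjusted p under 0.05, and 1 was lower at that level in OPCs. The part of carry-over in the mitochondrial values was not tested. SDHD, the respiratory subunit called higher in myeloid nuclei, is encoded in the nucleus.

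**Figure D5:**
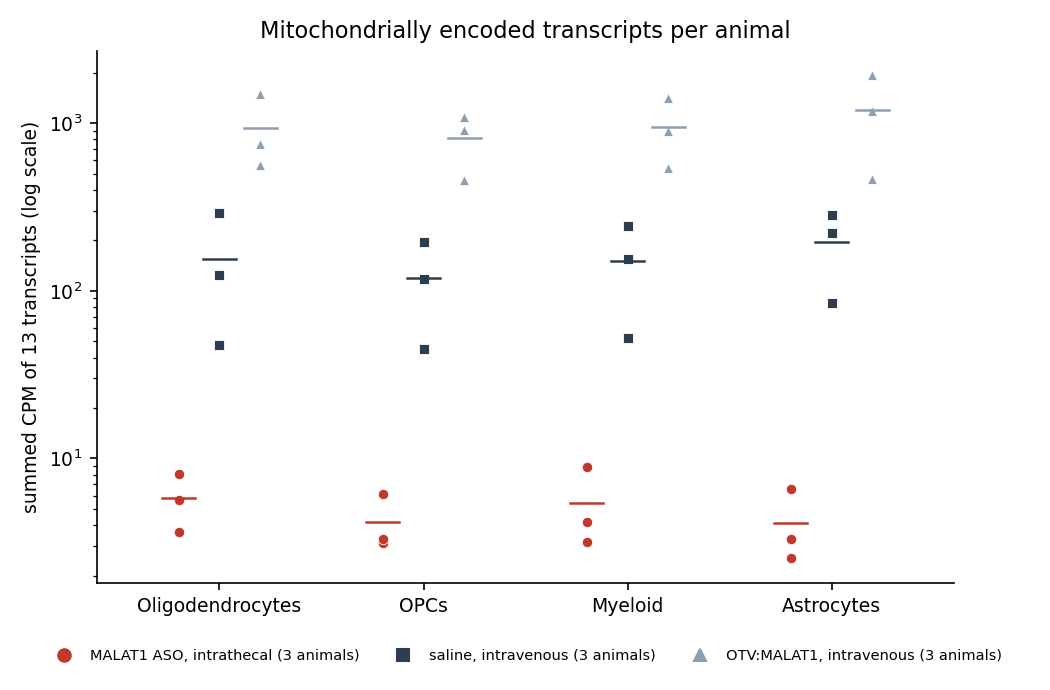
Summed CPM of 13 mitochondrially encoded transcripts per animal (y axis, log scale) in 4 cell types; points are animals and horizontal bars means of 3. ASO animals lie between 2.53 and 8.91 CPM, saline animals between 44.8 and 290 CPM and OTV animals at 455 CPM or more.

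Lists close to the target and to oligonucleotide handling held no calls in any of the 4 types. These were splicing factors of nuclear speckles (24 tested in each type, 0 called, medians from -0.05 to 0.02), paraspeckle proteins (7 tested, 0 called), RNase H and oligonucleotide-binding proteins (10 or 11 tested, 0 called), endocytic receptors of oligonucleotides (13 to 17 tested, 0 called) and neighbours of the MALAT1 locus (3 to 8 tested, 0 called). Of 15 genes that sense nucleic acids tested in oligodendrocytes, 0 were called and 4 were higher at an unadjusted p under 0.05. Among these TBK1, the kinase that relays such signals, had 182, 191 and 149 CPM against 113, 110 and 145 CPM (0.50, adjusted p = 0.239), and STING1, the adaptor of the DNA sensor cGAS, had 0.837, 0.562 and 0.560 CPM against 0.0922, 0.0911 and 0.209 CPM (2.68, adjusted p = 0.0987). Both genes were chosen after their values were seen. The median of the list of nucleic acid sensing was 0.33 in oligodendrocytes, and 0 of its members were called in the other 3 types. The interferon response list had 0 calls among 27, 21, 24 and 19 genes tested in oligodendrocytes, OPCs, myeloid nuclei and astrocytes. Within OPC cluster 13, 2 of its 5 members tested were called in opposite directions, MX2 higher (2.79, adjusted p = 0.0473) and EIF2AK2 lower (-1.48, adjusted p = 0.0466), calls lost without 6 and 8 of the 9 animals in turn. Heat shock, complement, ribosomal protein, unfolded protein response and hypoxia lists also had 0 calls in these types, which at 3 animals a group does not show that their genes did not differ.

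The interaction of cell type and treatment was called for 161 of 16,830 features (0.957%). For 14 genes named here and tested in each of the 4 types the difference between types passed. No difference between types is read for GIPR, FLT1 and OLFML2A, which had too few UMIs to be tested in some types alone and entered the joint fit through the types where they were high. TACC2, AFDN, KIAA1549, SDHD, RHOJ and CHKA had their type calls in myeloid nuclei, and COL9A1, EFCAB5, FSTL1, HEG1 and UNC13B in oligodendrocytes. HEG1 differed in sign between these 2 types, at 1.46 in oligodendrocytes and -1.41 in myeloid nuclei, the latter without a call (adjusted p = 0.325). CHKA fell in myeloid clusters 7 and 9 and rose by 0.95 in OPC cluster 13, where it was called. The cluster 13 call was lost without 4 of the 9 animals in turn. Over all myeloid nuclei the edgeR adjusted p of CHKA rose to as much as 0.211 with 1 animal left out.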

How the data were processed

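Nuclei of the thalamus were isolated in lysis buffer, sorted on DAPI and sequenced with 10x Genomics chemistry, per the labels' protocols, which mention mouse brain although the samples are labelled as monkey. The authors deposited unnormalised UMI counts of 29,128 features in 79,994 nuclei, with a table giving each nucleus its animal, cell type, cluster and doublet score. The authors' deposited percentage of UMIs in ribosomal protein genes was not used here. Cell Ranger 6.1.2, Seurat 4 and GRCh38.p13 are named in the submitters' processing notes, whereas the features without a symbol carry macaque Ensembl identifiers. No nucleus was removed here, and doublets were not called again. The smallest nucleus held 1018 UMIs and the highest deposited doublet score was 0.865.

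Deposited counts were summed per animal within each cell type and within each of 11 clusters that had at least 20 nuclei in every compared animal. edgeR 4.0.16 in R 4.3.3 was fitted to all 9 animals (TMM scaling, filterByExpr, robust quasi-likelihood), and the ASO minus saline contrast was adjusted by Benjamini-Hochberg over all features of a fit. A call is an adjusted p under 0.05. CPM are TMM-scaled, the SE is the log2 fold change divided by the square root of F, and MALAT1 percentages are unscaled. The fit of cluster 8 lacks OTV replicate 3, which had 1 nucleus there. The interaction was fitted over the 4 types with the animal as a block. Shares were compared by two-sided exact permutation tests, which with 3 against 3 cannot go below 0.1.

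Genes named were MALAT1, up to 8 higher and 8 lower called genes with a symbol per type ordered by p and without overlap, genes whose calls shared a direction across 2 or more types or 3 or more clusters, and called members of the lists. Some of these genes are not reported here. The comparison, the gene lists and this rule were chosen with earlier results of these data known. Other genes given with values were chosen after their values were seen. Among them are the uncalled list members CTSB, NPC2, PDCD1LG2, CIITA, NLRC5, TBK1, STING1, NR1D2 and ARNTL. Alternatives were DESeq2 1.42.0 (its size factors and its Wald test), no filter, the 6 compared animals only, each animal left out, counts thinned to equal totals, nuclei drawn to equal cluster shares, and limma 3.58.1 on CPM standardised to fixed cluster weights with a pseudocount of 0.5. On simulated counts the test called 21.9% of genes changed by a true log2 fold of 1 in oligodendrocytes (19,652 genes), 46.5% for OPCs (14,544), 26.0% for myeloid nuclei (12,287) and 10.2% for astrocytes (13,288). At a true log2 fold of 2 these were 62.2%, 88.4%, 72.4% and 71.4%.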

Additional observations from a re-analysis of the deposited data

Results flagged for a closer look

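For 14 named genes tested in each of the 4 types the log2 fold change of ASO against saline differed between cell types by the interaction test (edgeR's quasi-likelihood test, Benjamini-Hochberg adjusted over 16,830 features). Among genes called in myeloid nuclei, the adjusted p of the interaction was 3.3e-05 for TACC2, 3.3e-05 for AFDN, 0.00943 for KIAA1549, 0.00506 for SDHD, 0.00462 for RHOJ and 0.0135 for CHKA. CHKA had log2 fold changes of 0.40 in oligodendrocytes, 0.12 for OPCs, -0.89 for myeloid nuclei and -0.04 for astrocytes, and RHOJ 0.37, 0.69, -4.05 and -0.95.

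Among genes called in oligodendrocytes, or in their clusters, it was 0.00152 for FSTL1, 0.00506 for EFCAB5, 0.00737 for ADK, 0.00861 for COL9A1, 0.00987 for HEG1 and 0.033 for UNC13B. COL9A1 had -1.89 in oligodendrocytes and -1.94 in myeloid nuclei, where the level was far lower, and -0.34 in OPCs. ADK had -1.0 in oligodendrocytes and 0.28 in myeloid nuclei.

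BRCA1 (0.0316) had 1.06 in oligodendrocytes, 1.28 in OPCs, 1.38 in astrocytes and 0.39 in myeloid nuclei. PER3 (0.00506) had -0.38, -0.79, -0.18 and -1.33 in the same order. The joint fit gave an adjusted p of 7.34e-05 for GIPR, 0.0171 for FLT1 and 0.00737 for OLFML2A. These 3 genes could not be tested in some types alone for want of UMIs and entered the joint fit through the types where they were high, so no difference between types is read from these values. The number of features called by the interaction fell from 161 to 43 without ASO replicate 1, 81 without ASO replicate 2, 81 without saline replicate 1 and 48 without saline replicate 2.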

How the results depend on the processing

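All 68 calls of named genes kept their direction under each alternative that tested them. They kept the threshold in 68 with DESeq2 size factors, 68 with the DESeq2 Wald test, 64 without the filter, 63 with nuclei drawn to equal cluster shares, 55 with standardised CPM, 27 with counts thinned to equal totals and 24 with the 6 compared animals only. Under every animal left out, 11 kept it. Counts of calls moved more. In the order oligodendrocytes, OPCs, myeloid nuclei and astrocytes they were 40, 3, 11 and 5 with 6 animals and 664, 215, 195 and 70 with the DESeq2 Wald test (7 in neurons). Thinning left 13, 12, 32 and 4. Without the filter OPCs had 95, myeloid nuclei 85, astrocytes 13 and neurons 1, and standardised CPM gave 9 in astrocytes. Leaving out 1 animal gave 17 to 78, 2 to 35, 12 to 57, 1 to 5 and, in neurons, 0 to 1. In oligodendrocytes 21, 17 and 18 were called without ASO replicates 1, 2 and 3, 36 and 17 without saline replicates 1 and 2, and 48 without OTV replicate 2. In OPCs these were 3 and 24 without ASO replicates 1 and 2, 9 and 2 without saline replicates 1 and 2, and 16 without OTV replicate 2. In myeloid nuclei they were 12 and 12 without ASO replicates 1 and 2, 16 and 57 without saline replicates 1 and 3, and 15 without OTV replicate 2. The calls summed over clusters (636) became 2216 with DESeq2, 303 thinned, 1757 unfiltered and 276 to 673 without 1 animal. The interaction (161) gave 89 with 6 animals and 43 to 182 without 1 animal. MALAT1 changed sign without saline replicate 1 in astrocytes and in cluster 6 (-0.27 to 0.07 in both without 1 animal), and in cluster 13 without ASO replicate 3 (-0.01) or saline replicate 3 (-0.09 to 0.41 without 1 animal). No paired analysis was possible because the labels give no replicate numbers that tie animals of different groups to each other. Depth was low in neurons, with 17 and 18 nuclei in 2 of the ASO animals. It was also low in clusters 3, 5, 8 and 13, where the shallowest compared animal had 299,673, 264,430, 141,073 and 241,456 UMIs. That animal was saline replicate 3 in each.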
